A study of Mus musculus with 6 samples.

Results

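The enzymes described here make serine and carry its one-carbon units on folate, and they are 10 genes found by their names among the 51499 loci of the count table: *Phgdh*, *Psat1* and *Psph* of serine synthesis, *Shmt1* and *Mthfd1* of the cytosolic folate arm, and *Shmt2*, *Mthfd2*, *Mthfd2l*, *Mthfd1l* and *Aldh1l2* of the mitochondrial folate arm. Each name matched 1 locus, and all 10 passed the filter on low counts. They were measured by RNA-Seq in WT MEFs, fibroblasts grown from mouse embryos, that received either control siRNA (Scr) or *Yme1l* siRNA by transfection 72 h before collection, with 3 cultures per group. The methods describe the WT MEFs of the study as clones with loxP sites at both *Yme1l* alleles that had kept the gene after transduction with Cre recombinase, and do not say how many clones were used here. The labels call the cells 3T3 immortalized, whereas the methods name SV40 large T antigen. The list of siRNAs of the study was not used here, so whether 1 or several sequences targeted *Yme1l* is not stated.

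Serine is made from the glycolytic intermediate 3-phosphoglycerate. Serine hydroxymethyltransferases then split serine into glycine and a one-carbon unit on tetrahydrofolate, in the cytosol or in mitochondria. In proliferating cells the mitochondrial arm usually oxidizes this unit and exports it as formate, which the cytosolic arm uses for purine and thymidylate synthesis. YME1L is a protease of the mitochondrial inner membrane, so the comparison asked how transcripts for enzymes on both sides of that membrane responded when it was depleted. Several of these genes are known targets of ATF4, a transcription factor that is induced by mitochondrial and amino acid stress.

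The libraries held between 37260605 and 45205207 counts, and 14499 loci were tested with edgeR's quasi-likelihood test on the counts as deposited. CPM stands for the counts of a locus scaled to a common, TMM-adjusted library size, and p-values are adjusted over all loci tested, with a threshold of 0.05. *Yme1l1*, the targeted gene (XLOC_022557, chromosome 2 from 23156369 to 23199260), was at 170, 171 and 171 CPM in Scr replicates 1 to 3 and at 31.6, 23.4 and 45 CPM in Yme1l siRNA replicates 1 to 3. Its level in Yme1l siRNA cultures was thus 0.195 times that in Scr cultures (log2 fold change -2.36, standard error 0.20, adjusted p = 3.87e-05 by edgeR). The response of the whole transcriptome was broad. Of the loci tested, 58% passed the threshold, 28.4% higher and 29.6% lower after *Yme1l* knockdown, and 65.4% of them had no overlap in level between the groups. Of the 10 fibroblast markers chosen, *Col1a1*, *Fn1* and *Vim* were among the abundant transcripts of every library, whereas *Thy1* had at most 1 count and *Lum* at most 15. The p-values weigh the difference between the groups against the spread between these cultures, 3 per group.

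Transcripts for serine synthesis and for the 2 enzymes chosen for the cytosolic arm were higher after *Yme1l* knockdown, and the mitochondrial arm was divided. Of the enzymes, 7 rose, *Mthfd1l* and *Mthfd2l* fell and *Aldh1l2* did not pass the test. Of the 10 enzymes, 7 were higher (28.4% of all loci), 2 were lower (29.6% of all loci) and 2 were higher by at least 2-fold (8.18% of all loci). Of the 10 enzymes, 9 had no overlap in level between the groups, against 65.4% of all loci. The median log2 fold change over the 10 was 0.70, within a range from -0.62 to 1.36, and that of all loci tested was 0.01. All 3 enzymes of serine synthesis were higher, with a median of 0.75, and both cytosolic folate enzymes were higher, with a median of 1.17. The cytosolic arm as chosen here leaves out *Aldh1l1*, the cytosolic counterpart of *Aldh1l2*. *Aldh1l1* was lower (log2 fold change -1.44, adjusted p = 5.96e-05 by edgeR). In the mitochondrial arm 2 were higher, 2 were lower and 1 was not called. Its median of -0.17 is the value of *Aldh1l2*, the enzyme not called. These are counts over enzymes chosen by name, and no test over them was made.

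**Figure D1:**
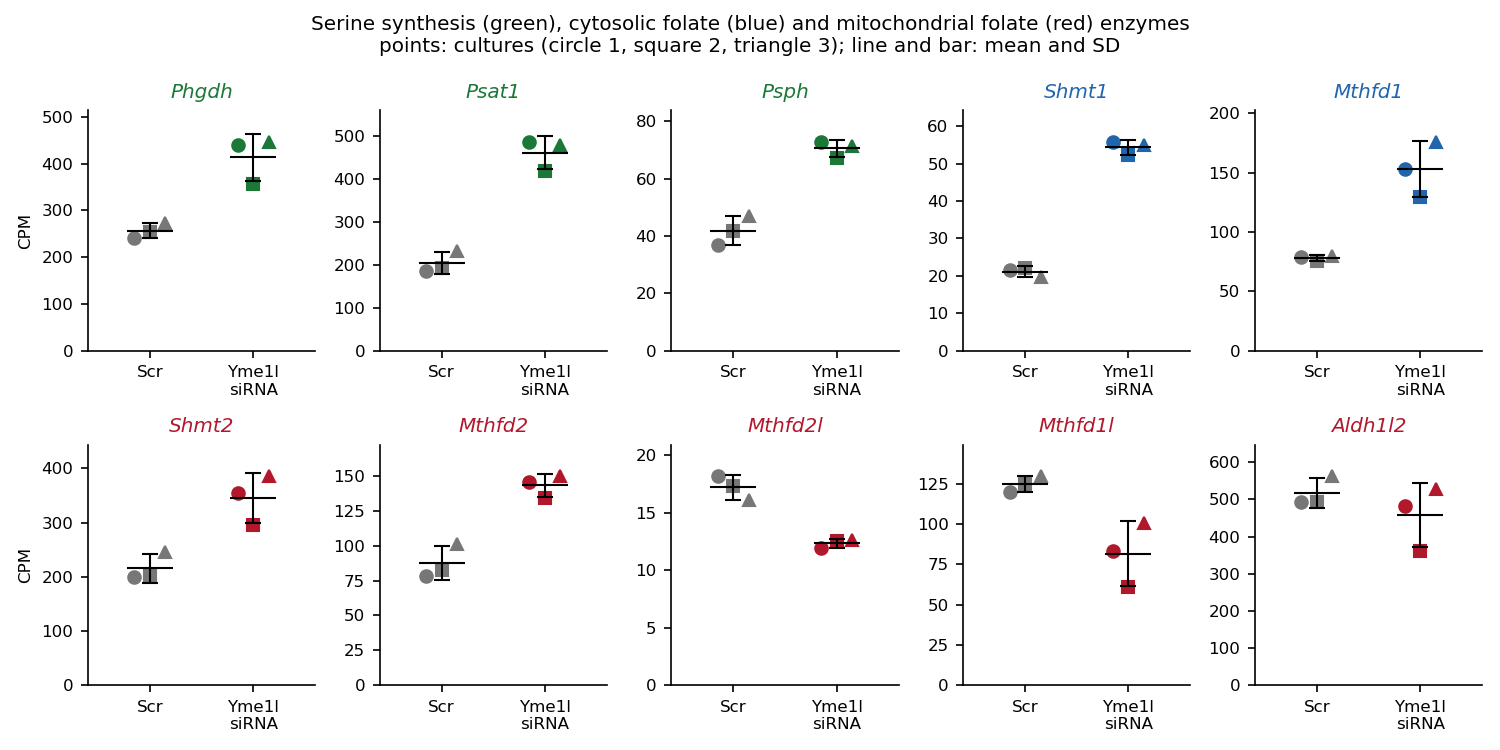
Level of each of the 10 enzymes in CPM (vertical axes from 0, a scale of its own for each gene) in the 3 Scr cultures (grey) and the 3 Yme1l siRNA cultures (coloured by arm), with lines and bars for the mean and SD. All Yme1l siRNA points lie above all Scr points in the 7 panels of the enzymes that rose, below them for *Mthfd2l* and *Mthfd1l*, and for *Aldh1l2* they span 362 to 529 CPM against 494 to 563, with only replicate 3 among the Scr points.

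PHGDH oxidizes 3-phosphoglycerate and commits it to serine synthesis. *Phgdh* (XLOC_028176) lies on the minus strand of chromosome 3 of mm10 from 98313170 to 98339990. It was counted at 242, 254 and 274 CPM in Scr replicates 1 to 3 and at 439, 356 and 447 CPM in Yme1l siRNA replicates 1 to 3. The lowest knockdown culture, replicate 2, was still 1.3 times the highest control culture. The group means were 257 ± 16.2 and 414 ± 50.6 CPM (SD, n = 3 each), a 1.61-fold rise (log2 fold change 0.69, standard error 0.10, adjusted p = 0.000531 by edgeR). *Phgdh* has processed copies in the mouse genome whose transcripts match its own at 95% identity or more, and how the counting treated reads that fit several places is not given in the sources used here. *Gm7901*, the copy with the most counts, matches 1597 bases at 98.7% identity and had 461, 380 and 447 counts in Scr cultures and 745, 637 and 857 in Yme1l siRNA cultures, whereas *Phgdh* itself had 10479, 9171 and 11565 and then 19474, 15453 and 18821. The reads of *Phgdh* and of its copies may be shared, so its value is uncertain to that extent.

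PSAT1 transfers an amino group from glutamate in the next step. *Psat1* (XLOC_022005, minus strand of chromosome 19 from 15904678 to 15947337) had the largest rise of the serine synthesis enzymes. Its level was 185, 193 and 233 CPM in Scr replicates 1 to 3 and 487, 418 and 479 CPM in Yme1l siRNA replicates 1 to 3. Every knockdown culture was at least 1.79 times the highest control culture. The means were 204 ± 25.4 and 461 ± 37.8 CPM (SD, n = 3 each), 2.26-fold higher (log2 fold change 1.18, standard error 0.11, adjusted p = 4.41e-05 by edgeR). PSPH removes the phosphate to give free serine. *Psph* (XLOC_034369, minus strand of chromosome 5 from 129765558 to 129787449) was at 36.9, 41.8 and 46.9 CPM in Scr cultures and at 72.9, 67.2 and 71.5 CPM in Yme1l siRNA cultures. The groups were again apart, by 1.43 times between the nearest cultures, and the knockdown cultures lay closer together than the control cultures. The rise was 1.68-fold (log2 fold change 0.75, standard error 0.09, adjusted p = 0.000217 by edgeR). *Psph* shares 452 bases (10.4% of its exon length) with *Cct6a* on the other strand, and the sources used here do not say whether strand was used in counting. The *Cct6a* locus had 13709, 11858 and 12838 counts in Scr cultures and 17964, 14538 and 18707 in Yme1l siRNA cultures. The value of *Psph* is uncertain to that extent. Summed over the 3 enzymes, serine synthesis transcripts took 464 to 554 CPM in Scr cultures and 840 to 999 CPM in Yme1l siRNA cultures.

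The folate enzymes include 3 related pairs with members in different compartments or of different abundance, and their members did not respond alike. To show the genes side by side, the 150 bases before the RefSeq start of each (GRCm38.p6, 5′ to 3′ on the gene's strand) are printed with CCAAT, the core of the box bound by the transcription factor NF-Y, or its reverse complement ATTGG in capitals. The starts are those of RefSeq and can differ from the outer ends of the genes in GENCODE. The pair of serine hydroxymethyltransferases comes first, *Shmt1* at chr11:60811266-60811415 (minus strand) and *Shmt2* at chr10:127522445-127522594 (minus strand). The formyltetrahydrofolate synthetases follow, *Mthfd1* at chr12:76255082-76255231 (plus strand) and *Mthfd1l* at chr10:3972925-3973074 (plus strand), and then the mitochondrial dehydrogenases, *Mthfd2* at chr6:83317605-83317754 (minus strand) and *Mthfd2l* at chr5:90931046-90931195 (plus strand).
Shmt1: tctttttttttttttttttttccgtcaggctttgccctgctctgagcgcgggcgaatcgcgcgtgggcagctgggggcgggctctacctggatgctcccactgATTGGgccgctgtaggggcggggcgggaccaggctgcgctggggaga
Shmt2: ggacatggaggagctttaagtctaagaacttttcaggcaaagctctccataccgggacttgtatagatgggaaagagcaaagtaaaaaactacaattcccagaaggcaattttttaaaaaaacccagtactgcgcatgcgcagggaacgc
Mthfd1: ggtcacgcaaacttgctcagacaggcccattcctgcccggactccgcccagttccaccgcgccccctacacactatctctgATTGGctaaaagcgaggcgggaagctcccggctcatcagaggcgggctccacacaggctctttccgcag
Mthfd1l: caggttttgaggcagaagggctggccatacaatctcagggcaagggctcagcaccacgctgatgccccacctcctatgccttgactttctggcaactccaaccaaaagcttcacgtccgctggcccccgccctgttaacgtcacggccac
Mthfd2: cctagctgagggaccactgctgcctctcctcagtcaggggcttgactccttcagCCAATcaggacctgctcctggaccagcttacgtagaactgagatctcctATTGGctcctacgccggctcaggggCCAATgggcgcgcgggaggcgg
Mthfd2l: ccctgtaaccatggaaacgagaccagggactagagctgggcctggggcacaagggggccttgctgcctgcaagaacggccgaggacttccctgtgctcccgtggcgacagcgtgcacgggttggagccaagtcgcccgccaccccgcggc
In each pair 1 member holds the motif in this window and the other does not, once in *Shmt1*, once in *Mthfd1* and 3 times in *Mthfd2*. The search, chosen after the values were seen, covered 250 bases before the start on both strands, with a window for 9 of the 10 enzymes, all but *Aldh1l2*. CCAAT was found for 6 of them, *Phgdh*, *Psat1*, *Psph*, *Shmt1*, *Mthfd1* and *Mthfd2*, all among the enzymes that rose, and was not found for *Shmt2*, which rose as well, nor for *Mthfd2l* and *Mthfd1l*. *Psat1* has windows for 2 RefSeq starts, and that of start 2 does not hold it. Counted by window, 6 of the 10 windows of the enzymes hold CCAAT, and 35.5% of the 13281 windows of genes tested do. Neither TGATGNAA, a form of the element that ATF4 binds with C/EBP proteins, nor CACGTG, the E-box bound by MYC among others, was found in a window of the enzymes, and they occur in 1.99% and 8.14% of the windows of genes tested. These matches describe letters, and binding was not measured here.

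In the cytosol, SHMT1 moves the one-carbon unit from serine to tetrahydrofolate, and the trifunctional enzyme MTHFD1 interconverts the methylene, methenyl and formyl forms. *Shmt1* (XLOC_007810, minus strand of chromosome 11 from 60788104 to 60811718) had the largest change of all 10 enzymes. It was counted at 21.7, 22.2 and 19.6 CPM in Scr replicates 1 to 3 and at 55.9, 52.2 and 55.1 CPM in Yme1l siRNA replicates 1 to 3. The cultures of each group lay close together and the nearest cultures of the groups were 2.35 times apart. The means of 21.1 ± 1.36 and 54.4 ± 1.95 CPM (SD, n = 3 each) gave a 2.57-fold rise (log2 fold change 1.36, standard error 0.07, 95% confidence interval 1.19 to 1.53, adjusted p = 7.24e-06 by edgeR). *Shmt1* shares 184 bases (4.74% of its exon length) with *Smcr8* on the other strand. *Smcr8* had 3827, 3302 and 4169 counts in Scr cultures and 7761, 8588 and 6324 in Yme1l siRNA cultures. Whether strand was used in counting is not given, so the value of *Shmt1* is uncertain to that extent. *Mthfd1* and *Shmt2* have shorter overlaps of 37 and 32 bases with *Gm47525* and *Ndufa4l2*.

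*Mthfd1* (XLOC_009340, plus strand of chromosome 12 from 76255298 to 76319803) was at 79, 75.3 and 79.8 CPM in Scr cultures and at 153, 129 and 176 CPM in Yme1l siRNA cultures. Control cultures were nearly equal, knockdown cultures were spread more widely, and the nearest cultures of the groups differed by 1.61 times. The rise was 1.95-fold (log2 fold change 0.97, standard error 0.11, 95% confidence interval 0.72 to 1.22, adjusted p = 0.000145 by edgeR). Together *Shmt1* and *Mthfd1* took 97.5 to 101 CPM in Scr cultures and 181 to 231 CPM in Yme1l siRNA cultures.

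In mitochondria, SHMT2 loads the one-carbon unit and MTHFD2 oxidizes methylene-tetrahydrofolate towards the formyl form. Both transcripts rose. *Shmt2* (XLOC_005786, minus strand of chromosome 10 from 127517123 to 127522444) was at 199, 201 and 246 CPM in Scr replicates 1 to 3 and at 355, 295 and 386 CPM in Yme1l siRNA replicates 1 to 3. The groups did not overlap, although the nearest cultures, Scr replicate 3 and Yme1l siRNA replicate 2, differed by only 1.2 times. The rise was 1.6-fold (log2 fold change 0.68, standard error 0.12, adjusted p = 0.00147 by edgeR). *Mthfd2* (XLOC_036962, minus strand of chromosome 6 from 83305691 to 83325908) was at 77.9, 82.9 and 101 CPM in Scr cultures and at 146, 134 and 150 CPM in Yme1l siRNA cultures. As for *Shmt2*, Scr replicate 3 was the highest control and Yme1l siRNA replicate 2 the lowest knockdown culture, 1.34 times apart. The means of 87.2 ± 12 and 143 ± 7.97 CPM (SD, n = 3 each) gave a 1.65-fold rise (log2 fold change 0.72, standard error 0.10, adjusted p = 0.00049 by edgeR).

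MTHFD2L catalyses the same mitochondrial reactions as MTHFD2, and its transcript went the other way. *Mthfd2l* (XLOC_032313, plus strand of chromosome 5 from 90931117 to 91021368) was the least abundant of the enzymes in CPM per kb of exon. It was counted at 18.2, 17.3 and 16.1 CPM in Scr replicates 1 to 3 and at 11.9, 12.5 and 12.6 CPM in Yme1l siRNA replicates 1 to 3. All knockdown cultures were below all control cultures, by 1.28 times between the nearest. The level fell by 0.48 on the log2 scale, to 0.716 times (standard error 0.09, 95% confidence interval -0.68 to -0.28, adjusted p = 0.00182 by edgeR).

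MTHFD1L uses 10-formyl-tetrahydrofolate to release formate, the form in which the unit leaves mitochondria. *Mthfd1l* (XLOC_003335, plus strand of chromosome 10 from 3973118 to 4167081) was at 120, 125 and 130 CPM in Scr cultures and at 83.2, 60.8 and 101 CPM in Yme1l siRNA cultures. The control cultures were close together, the knockdown cultures ranged widely, and the highest of them, replicate 3, was 1.19 times below the lowest control. The level fell by 0.62 on the log2 scale, to 0.652 times (standard error 0.16, 95% confidence interval -0.98 to -0.26, adjusted p = 0.00964 by edgeR).

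ALDH1L2 oxidizes 10-formyl-tetrahydrofolate to CO2 in mitochondria and makes NADPH. *Aldh1l2* (XLOC_005403, minus strand of chromosome 10 from 83487450 to 83534140) was at 494, 494 and 563 CPM in Scr cultures and at 483, 362 and 529 CPM in Yme1l siRNA cultures. The groups overlapped, since Yme1l siRNA replicate 3 lay above the lower controls. The log2 fold change was -0.17 (95% confidence interval -0.48 to 0.13) and did not pass the threshold (adjusted p = 0.295 by edgeR), so a fall to 0.886 times was within the spread between cultures, and the interval includes both no change and a fall of 0.48. *Aldh1l2* shares 1056 bases (14.1% of its exon length) with *D10Wsu102e* on the other strand, which had 4015, 3621 and 3571 counts in Scr cultures and 5139, 4731 and 5246 in Yme1l siRNA cultures. Summed over the 5 enzymes, the mitochondrial arm took 909 to 1056 CPM in Scr cultures and 865 to 1179 CPM in Yme1l siRNA cultures, and these ranges overlapped, unlike those of the other arms. *Aldh1l2* alone held 494 to 563 CPM of the Scr sums and 362 to 529 CPM of the Yme1l siRNA sums. A sum without *Aldh1l2* was not made, so the overlap need not hold for the other enzymes of the arm. Sums of CPM are not scaled for length.

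**Figure D2:**
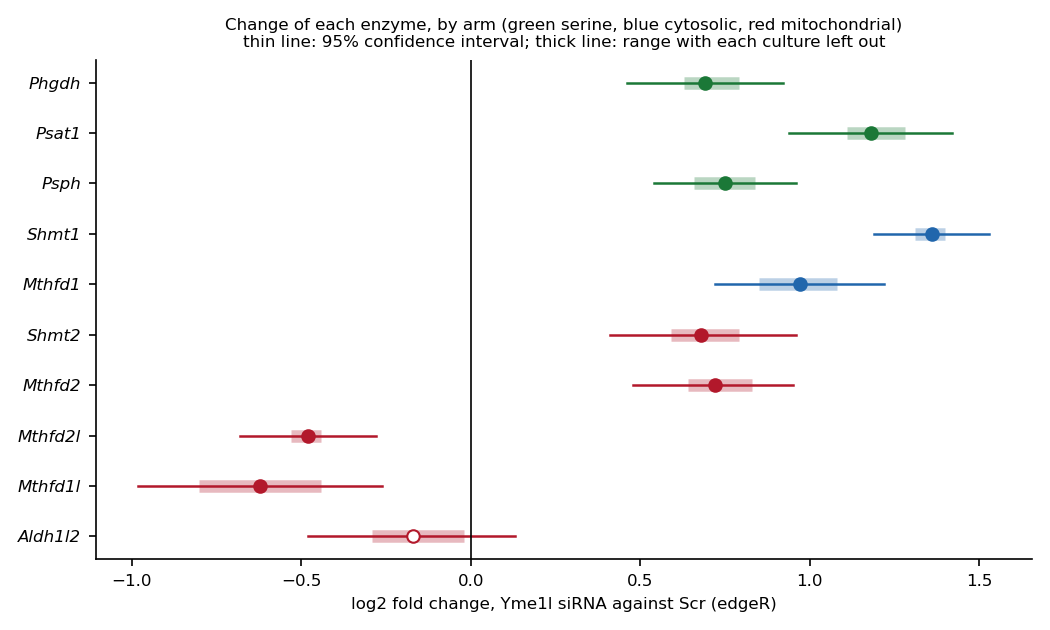
Log2 fold change of each enzyme in Yme1l siRNA against Scr cultures (horizontal axis), with the 95% confidence interval (thin line) and the range of values when each of the 6 cultures is left out in turn (thick line), coloured by arm. The intervals of *Phgdh*, *Psat1*, *Psph*, *Shmt1*, *Mthfd1*, *Shmt2* and *Mthfd2* lie above 0, those of *Mthfd2l* and *Mthfd1l* lie below 0, and that of *Aldh1l2* (open circle) spans 0.

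Most of the enzymes had the same cultures at the extremes of their groups. Scr replicate 3 was the highest control for 8 of the 10 enzymes, with *Shmt1* and *Mthfd2l* as the exceptions. Yme1l siRNA replicate 2 was the lowest knockdown culture for 9 of the 10, all but *Mthfd2l*, and replicate 3 was the highest for 7. The shares of all loci with these extremes were not counted. Whether the order of the cultures is particular to the enzymes or is shared by each library as a whole was therefore not tested. The spread was widest for *Mthfd1l*, where Yme1l siRNA replicate 2 was 0.39 below and replicate 3 was 0.34 above the mean log2 level of their group. For *Aldh1l2* these deviations were -0.32 and 0.23, and for *Shmt1* they were -0.06 and 0.02. Replicate 2 also had the least *Yme1l1* transcript and replicate 3 the most of the knockdown cultures, at 23.4 and 45 CPM. With 3 cultures this is a description, and the part of the knockdown level in the spread was not tested. The median log2 fold change of the mitochondrial arm, which is the value of *Aldh1l2*, moved with these libraries. Without Yme1l siRNA replicate 2 this median was -0.02, and without Yme1l siRNA replicate 3 it was -0.29.

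Ratios of related enzymes within each library do not depend on the scaling between libraries. Per kb of exon, mitochondrial *Shmt2* was 11.4, 11.3 and 15.7 times cytosolic *Shmt1* in Scr replicates 1 to 3 and 7.93, 7.07 and 8.75 times in Yme1l siRNA replicates 1 to 3. Both transcripts rose, but *Shmt1* rose more, so the mean log2 ratio went from 3.66 ± 0.27 to 2.98 ± 0.15 (SD, n = 3 each), a difference of -0.68. The ratio of *Mthfd1l* to *Mthfd1* was 1.52, 1.67 and 1.64 in Scr cultures and 0.544, 0.474 and 0.576 in Yme1l siRNA cultures. The mitochondrial synthetase transcript was thus the more abundant per kb in every control culture and the less abundant in every knockdown culture. The mean log2 ratio changed by -1.60, from 0.68 ± 0.07 to -0.92 ± 0.14 (SD, n = 3 each). Between the mitochondrial dehydrogenases, *Mthfd2* was 8.14, 9.15 and 11.9 times *Mthfd2l* in Scr cultures and 23.4, 20.5 and 22.7 times in Yme1l siRNA cultures, a difference of 1.21 in the mean log2 ratio (3.26 ± 0.28 and 4.47 ± 0.10, SD, n = 3 each). By the authors' FPKM, *Mthfd2* and *Mthfd2l* were at 45 and 13.2 in Scr and at 74.3 and 11.1 in Yme1l siRNA cultures. The ratio was smaller by that measure in both groups, so its size depends on the measure. None of the 3 ratios overlapped between the groups. The two-sided exact permutation test gave p = 0.10 for each, without adjustment over the 3. This is the smallest p that 3 cultures against 3 allow.

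**Figure D3:**
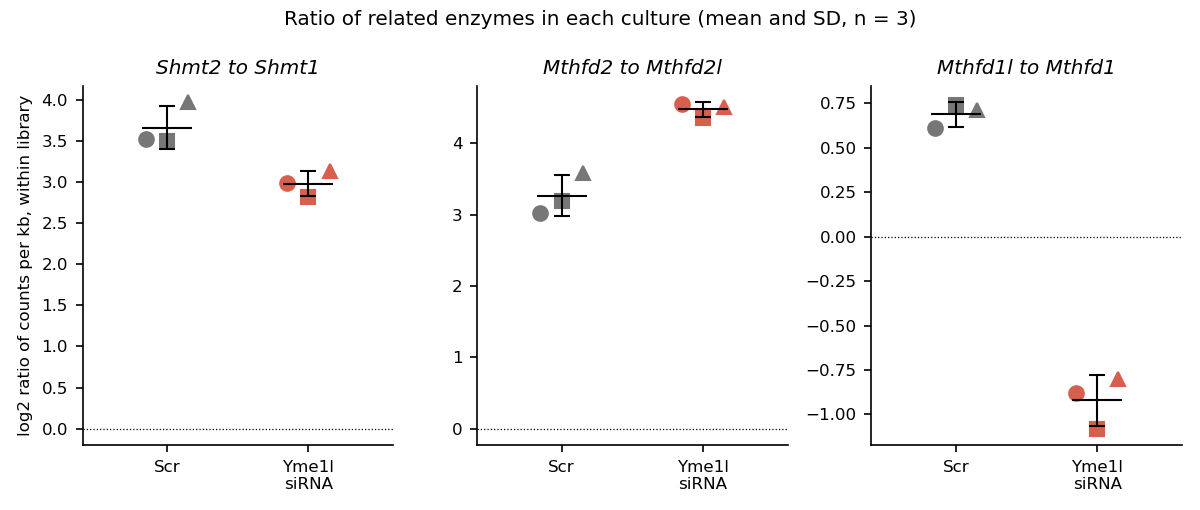
Log2 ratio of counts per kb of exon between related enzymes within each library (vertical axes, a scale of its own for each panel) for *Shmt2* to *Shmt1*, *Mthfd2* to *Mthfd2l* and *Mthfd1l* to *Mthfd1*, in Scr (grey) and Yme1l siRNA (red) cultures, with the mean and SD. The groups are apart in each panel, and the ratio of *Mthfd1l* to *Mthfd1* goes from above 0 (0.61 to 0.74) to below 0 (-1.08 to -0.80).

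Levels of different enzymes can be compared only per length, here as CPM per kb of the union of annotated exons. In Scr cultures *Phgdh* was the most abundant at 103 ± 6.51 CPM per kb (SD, n = 3), followed by *Shmt2* at 69.3, *Aldh1l2* at 68.9, *Psat1* at 47.9, *Mthfd1l* at 28.2, *Mthfd2* at 25, *Mthfd1* at 17.6, *Psph* at 9.67, *Shmt1* at 5.45 and *Mthfd2l* at 2.59 CPM per kb. The ranges of the cultures overlapped between *Shmt2* and *Aldh1l2* and between *Mthfd1l* and *Mthfd2*, so the order within these pairs was not resolved. In Yme1l siRNA cultures *Phgdh* still came first, at 166 ± 20.3 CPM per kb (SD, n = 3), before *Shmt2* at 111 and *Psat1* at 108, whose ranges overlapped. *Aldh1l2* followed at 61.1, then *Mthfd2* at 41.1 and *Mthfd1* at 34.3, which overlapped, then *Mthfd1l* at 18.4 and *Psph* at 16.3, which overlapped, then *Shmt1* at 14 and *Mthfd2l* at 1.85 CPM per kb. *Psat1* thus moved above *Aldh1l2*, and *Mthfd1l* moved below *Mthfd2* and *Mthfd1*. By the FPKM per group that the authors deposited, *Phgdh*, *Shmt2*, *Aldh1l2* and *Psat1* held the same first 4 places in Scr cultures, at 146, 108, 88.8 and 86.5. The lower places differed, with *Shmt1* at 9.99 below *Mthfd2l* at 13.2 FPKM, but *Mthfd1l* was again above *Mthfd1* in Scr cultures (35.1 and 25.4 FPKM) and below it in Yme1l siRNA cultures (24.2 and 50 FPKM).

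**Figure D4:**
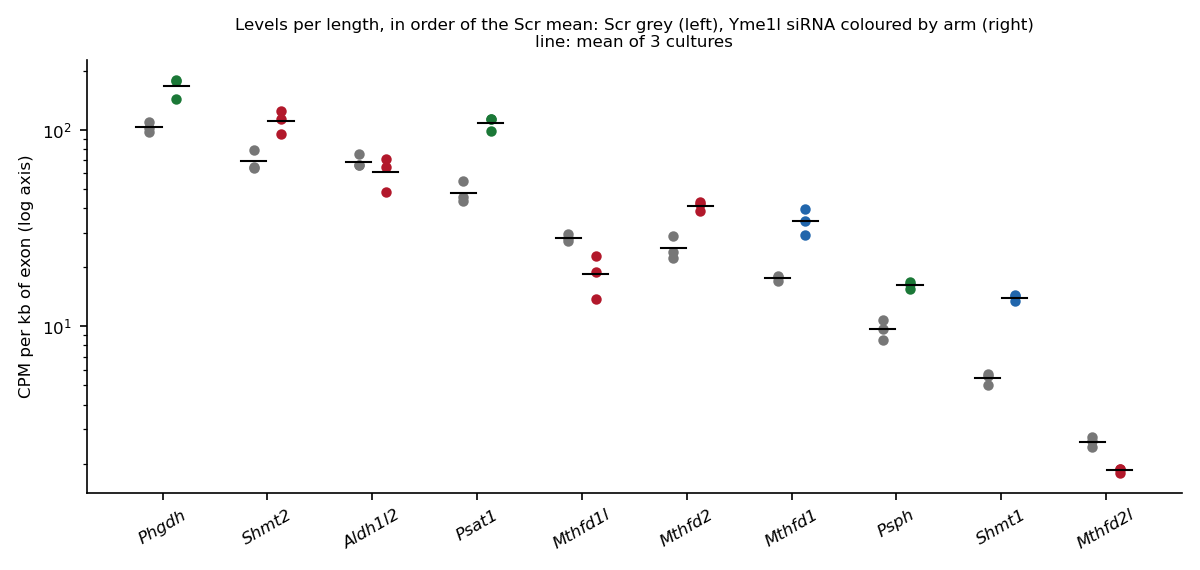
CPM per kb of exon (log axis) of the 10 enzymes in Scr (grey) and Yme1l siRNA (coloured by arm) cultures, in the order of the Scr mean, with lines for the means of 3 cultures. *Phgdh* stands highest and *Mthfd2l* lowest in both groups, and the points of *Mthfd1l* fall from 27.1 to 29.4 CPM per kb to between 13.7 and 22.8 while those of *Mthfd2* and *Mthfd1* rise.

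The enzymes and carriers around the pathway were described in 7 lists chosen by function. Of their 54 tested loci 19 were higher (28.4% of all loci), 15 were lower (29.6% of all loci) and 20 were not called, shares close to those of all loci, with a median log2 fold change of 0.10 beside 0.01 for all loci. Among the genes of folate uptake and storage, 2 of 4 tested were higher and 1 was lower. *Slc19a1*, which encodes the reduced folate carrier of the plasma membrane, was at 45.4, 41.8 and 43.6 CPM in Scr cultures and at 71, 64.3 and 75.6 CPM in Yme1l siRNA cultures, with no overlap (log2 fold change 0.69, adjusted p = 0.000137 by edgeR). *Fpgs*, whose product retains folate in cells by adding glutamate residues, rose by 0.48 (adjusted p = 0.000389), and *Ggh*, whose product removes them, fell by 0.69 on the log2 scale (adjusted p = 0.00593), at 1.92 to 3.46 CPM over all libraries. *Slc46a1*, the proton-coupled folate transporter, had a log2 fold change of -0.12 and was not called (adjusted p = 0.495). The folate receptor genes *Folr1* and *Folr2* had at most 3 counts in any library. *Slc25a32*, the mitochondrial folate carrier, was listed at 0 in every library of the count table and in both groups of the deposited FPKM table. The reason was not found, so no level is given for this gene.

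Enzymes that use the folate-bound units were also mixed. Of 11 tested, 5 were higher (28.4% of all loci) and 3 were lower (29.6% of all loci). *Tyms*, which encodes thymidylate synthase, was at 38.7, 38.5 and 44.6 CPM in Scr cultures and at 113, 121 and 109 CPM in Yme1l siRNA cultures, 2.82-fold higher (log2 fold change 1.50, adjusted p = 7.42e-06 by edgeR). Every knockdown culture was far above every control culture. *Aldh1l1*, the cytosolic counterpart of *Aldh1l2*, fell from 22, 24.1 and 25.2 CPM to 8.75, 10.4 and 7.14 CPM (log2 fold change -1.44, adjusted p = 5.96e-05). Named after their values were seen, the purine synthesis genes *Atic* (0.88) and *Gart* (0.46) and the methionine synthase reductase gene *Mtrr* (0.39) were higher, and *Mthfs* (-0.76) and *Mthfsl* (-0.44) were lower. *Mtrr* (adjusted p = 0.0404 by edgeR, with overlapping groups) and *Mthfsl* (adjusted p = 0.0291) lay near the threshold, and with each library left out in turn the list had 4 or 5 genes higher and 2 or 3 lower. The *Mthfs* locus also carries the names *Bcl2a1b* and *Gm29094*, so its reads cannot be assigned to 1 gene. *Mtr* and *Mtfmt* were not called, with log2 fold changes of 0.13 and 0.01, and *Ftcd* was at 0 counts.

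In the mitochondrial glycine cleavage system, *Gcsh*, the carrier protein, rose from 42.2, 46.2 and 40.5 CPM to 88.8, 92.2 and 96.4 CPM (log2 fold change 1.11, adjusted p = 1.37e-05 by edgeR). *Dld*, the dehydrogenase that other mitochondrial complexes share, rose by 0.35 (adjusted p = 0.00245). *Amt*, the aminomethyltransferase, was at -0.62 and was not called (adjusted p = 0.0982), and *Gldc*, the decarboxylase of the system, had at most 6 counts in any library. Of the enzymes that take one-carbon units from choline breakdown, *Sardh* was at -0.16 (adjusted p = 0.163), *Dmgdh* was at 0 counts and *Gnmt*, which methylates glycine, had at most 6 counts.

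Of 8 tested transporters of serine and glycine, 3 were higher (28.4% of all loci) and 2 were lower (29.6% of all loci). The sideroflexins went apart. SFXN1 is known as a carrier of serine into mitochondria, and *Sfxn1* fell from 94.6, 91.8 and 103 CPM to 64, 56.6 and 70.9 CPM (log2 fold change -0.60, adjusted p = 0.000781 by edgeR). *Sfxn3* fell from 117, 118 and 110 CPM to 51.8, 60.5 and 50.6 CPM (log2 fold change -1.08, adjusted p = 2.65e-05), whereas *Sfxn2* rose from 12.2, 10.7 and 8.72 CPM to 29.8, 30.4 and 24.4 CPM (log2 fold change 1.42, adjusted p = 6.99e-05). The groups did not overlap for any of these 3, as for 65.4% of all loci. Named after their values were seen, the plasma membrane carriers *Slc1a5* (0.40) and *Slc38a2* (0.27) were also higher. Without Yme1l siRNA replicate 2 the number of higher transporters was 5. *Slc7a10* was at 0 counts.

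In the list of genes that use serine or are named for it, 6 of 10 tested were lower (29.6% of all loci) and 1 was higher (28.4% of all loci), with a median of -0.40, and 3 of the 6 were *Serinc* genes. *Srr*, which encodes serine racemase, fell from 28.4, 28.4 and 24.1 CPM to 8.66, 7.39 and 8.73 CPM, to 0.306 times (log2 fold change -1.71, adjusted p = 1.16e-05 by edgeR). *Srr* shares 1240 bases (27.2% of its exon length) with *Tsr1* on the other strand, and whether strand was used in counting is not given. *Serinc3* (-0.74, adjusted p = 0.000102) and *Serinc1* (-0.55, adjusted p = 0.000207) encode transmembrane proteins named for serine incorporation into lipids, a role that is disputed. Named after their values were seen, *Serinc5* (-0.47), *Sptlc1* (-0.33) of sphingolipid synthesis and *Sdsl* (-0.98) were the other lower genes. The 1 that rose, *Cbs*, links serine to homocysteine and stayed low, at 0.735 to 0.942 CPM in Scr cultures and 1.56 to 1.71 CPM in Yme1l siRNA cultures (log2 fold change 0.89, adjusted p = 0.00618), and it is named after its values were seen. *Sptlc3* and *Sds* were at 0 counts.

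The glycolytic genes around 3-phosphoglycerate showed no common direction. Of 7 tested loci 1 was higher (28.4% of all loci) and 1 was lower (29.6% of all loci). Both carry the name *Aldoa*. The abundant *Aldoa* locus fell from 1007, 887 and 793 CPM to 586, 553 and 670 CPM (log2 fold change -0.57, adjusted p = 0.00236 by edgeR), and a minor locus of the same name was at 0.439 to 0.804 CPM and then at 1.16 to 1.31 CPM (log2 fold change 0.91, adjusted p = 0.0189). *Pgk1*, whose product makes 3-phosphoglycerate, was at -0.15 (adjusted p = 0.329), and *Pgam1*, whose product draws it down the pathway, was at -0.29 (adjusted p = 0.0695). *Eno1* and *Pkm* were at 0.12 and 0.16 and not called. *Gapdh* was at 0.41 with overlapping groups and lay at the threshold (adjusted p = 0.0515), which it passed in 8 of the alternatives.

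Of ATF4 and its partner and target genes, 5 of 10 were higher (28.4% of all loci) and 2 were lower (29.6% of all loci), with a median of 0.40. *Atf4* itself was at 404, 429 and 491 CPM in Scr cultures and at 592, 584 and 585 CPM in Yme1l siRNA cultures (log2 fold change 0.41, adjusted p = 0.00326 by edgeR). The knockdown cultures were nearly equal and all above the controls. *Slc7a11*, the cystine transporter subunit, rose from 14, 16 and 17.1 CPM to 63.4, 41.5 and 55.4 CPM (log2 fold change 1.77, adjusted p = 4.08e-05). *Chac1*, which breaks down glutathione, was at 25.9, 28.1 and 44.1 CPM and then at 71.7, 68.1 and 71.5 CPM (log2 fold change 1.11, adjusted p = 0.000872), and *Asns*, asparagine synthetase, rose by 0.51 (adjusted p = 0.00238). Named after their values were seen, *Ddit3*, which encodes CHOP, was also higher (0.74), and the ATF4 partner *Cebpg* (-0.31, adjusted p = 0.0355) and *Atf5* (-0.20, adjusted p = 0.041) were lower, with calls that several alternatives did not keep. As for most of the enzymes, Scr replicate 3 was the highest control for *Slc7a11*, *Chac1*, *Asns* and *Atf4*, and the share of all loci with this order was not counted.

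Markers of cell type also moved with the knockdown. Of 8 tested fibroblast markers 7 were lower (29.6% of all loci) and none was higher, with a summed level of 33550 to 40738 CPM in Scr cultures and 18039 to 22449 CPM in Yme1l siRNA cultures. The 4 epithelial markers summed to 0.0924 to 0.166 CPM and then to 0.807 to 1.33 CPM, and 4 endothelial markers to 0.45 to 0.721 CPM and then to 1.43 to 1.92 CPM. Of the immune markers, *Adgre1* and *Cd3e* were at 0 and *Cd68* was at 42.6 to 53 and 25.7 to 58.2 CPM. Fewer cells of a type and less RNA per cell cannot be told apart in such bulk samples. Named after their values were seen, the epithelial marker *Krt8* (21.8-fold) and the endothelial marker *Kdr* (5.95-fold) were higher, and *Pecam1* was not called. *Krt8* was at or under 0.713 CPM and *Kdr* at or under 0.989 CPM in every library. The part of these shifts in the changes of the enzymes was not tested.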

How the data were processed

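RNA was poly(A)-selected and made into stranded libraries, 3 per group. Per the labels and the methods, the authors mapped the reads to mm10 (GRCm38) with HISAT2 2.0.4, assembled transcripts with StringTie 1.3.3 and compared the groups with Cuffdiff 2.2.1. They deposited raw counts per locus, without normalization; the counting program and its use of strand and of reads with several matches are not given in the sources used here. A second deposited table holds FPKM per group, combined over replicates by the authors, and their fold changes, test statistics and p-values, of which only the FPKM were used. All 6 samples were grouped by title, with 0 columns of samples left unmapped.

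The counts were tested with edgeR 4.0.16 (R 4.3.3): TMM factors, filterByExpr (minimum count 10, total 15), quasi-likelihood test without covariates, Benjamini-Hochberg adjustment and a threshold of 0.05. The biological coefficient of variation was 0.131. Standard errors are the log2 fold change over the square root of F. Ratios used 0.5 added counts. Exon lengths, coordinates and overlaps came from GENCODE M21, near-identical copies of the 10 enzymes (at least 95% over 100 bases) from BLAST, and start windows from RefSeq (GRCm38.p6). Libraries of a group differed beyond counting noise (chi-square per degree of freedom 9.99 to 73.8). A count of 0 allows up to 3 counts, for counting error only. Alternatives were DESeq2 1.42.0, limma-voom (limma 3.58.1), other scalings, filters and thresholds, removal of mtDNA loci, each library left out in turn and a block by replicate number. On simulated counts, with 200 genes changed 2-fold among 14334 fitted, edgeR recovered 84.5% with 4 false calls. DESeq2 recovered 84.5% with 19 false calls and limma-voom 83.5% with 7. The other alternatives were not simulated, and the simulated share of changed genes was far below the share called in the data. The members and lists were chosen with earlier results of these data known. Named were the 10 enzymes, *Yme1l1*, *Atf4*, in each list the 3 loci of smallest adjusted p or, in lists of up to 7 measured genes, all, and genes at or under 3 counts; others are marked in the text. Some list genes are counted but not reported by name here.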

Additional observations from a re-analysis of the deposited data

How the results depend on the processing

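Each of the 10 enzymes kept its direction and its side of the threshold under every alternative fit and with each library left out. The adjusted p of *Mthfd1l* reached at most 0.0308, and that of *Aldh1l2* ranged from 0.0739 to 0.844. Asking for at least 2-fold left 2 enzymes higher and 0 lower, 1186 of all loci higher and 1055 lower, and 6 genes of the surrounding lists higher and 3 lower, since fewer loci pass both limits. With each library left out in turn, the median of the mitochondrial arm ranged from -0.29 to -0.02, which is the range of *Aldh1l2* alone. In the order of levels per kb, 4 of the 10 enzymes kept their place by the authors' FPKM in Scr and 4 in Yme1l siRNA cultures, and 6 kept it by the longest transcript in Yme1l siRNA cultures; the cause was not tested. *Gapdh* passed the threshold in 8 alternatives. The median of all loci moved to at most 0.08 under another scaling or filter.

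Same-numbered libraries correlated at 0.04, 0.12 and 0.19 in their deviations from the group means, and differently numbered libraries at -0.18 to 0.09. These values, from 3 cultures per group, cannot decide whether the replicate numbers pair the libraries. With the replicate block, 7 enzymes were higher and 2 lower, 4227 of all loci were higher and 4460 lower, and 21 genes of the surrounding lists were higher and 16 lower. With 3 cultures per group, small changes such as that of *Aldh1l2* could not be told from no change.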
